A study of Homo sapiens with 4 samples.

Results

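The miR-130 and miR-301 family is a group of microRNAs (miRNAs) joined by a common seed, and it was followed here through its loci MIR130A, MIR130B, MIR301A, MIR301B and MIR454. The loci were found by symbol from the Ensembl identifiers of the count tables, and all 5 were present among the 7062 small RNA features listed. Small RNA sequencing compared HEK293T cells, a human embryonic kidney line, that depended on a plasmid-borne RPB1, which is the catalytic and largest subunit of Pol II (RNA polymerase II). The plasmids encoded a C-terminal domain (CTD) with 52 heptads, wild type for 52X WT and, for 52X T4A, with alanine substituted for the threonine at the fourth residue. All cells, the 52X WT cells included, were transiently transfected with 1.5 µg of plasmid per well and then kept in 2.5 µg/ml of α-amanitin, a toxin that blocks the endogenous polymerase, for 72 h. Each group had 2 libraries, which the series describes as biological replicates. The untransfected line was not analysed here, so every value refers to cells selected through a plasmid-borne polymerase.

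Most miRNA genes are transcribed by RNA polymerase II into long primary transcripts. Drosha cuts a hairpin out of this transcript, Dicer trims the hairpin to a short duplex, and 1 strand is loaded onto an Argonaute protein. The loaded strand pairs with messenger RNAs mainly through its seed, bases 2 to 8 from the 5′ end, and lowers the output of those messengers. Because the family members share their seed they are expected to share many targets, and they have been studied chiefly in cell proliferation, transforming growth factor β signalling and the vasculature.

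The 3p strands of MIR130B, MIR301A, MIR301B and MIR454 are shown because the seed defines the family and the bases after it tell the members apart. The 3p strand of MIR130A was missing from the sequences used, so its seed was not read here. Sequences are those of RefSeq (GRCh38.p14), written 5′ to 3′ with bases 2 to 8 in capitals.
hsa-miR-130b-3p: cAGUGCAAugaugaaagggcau
hsa-miR-301a-3p: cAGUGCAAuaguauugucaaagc
hsa-miR-301b-3p: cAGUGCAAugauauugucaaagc
hsa-miR-454-3p: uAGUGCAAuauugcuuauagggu

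The 4 strands are identical from base 2 to base 8 and also share u at base 9. The first difference after the seed is at base 10. Among these 4 strands, those of miR-301a and miR-301b were the closest pair, with 2 differences over 23 positions counted from 1 at the 5′ end. The differences were A10G and G11A going from miR-301a to miR-301b. miR-130b differed from miR-301b at 9 of 22 positions, and miR-454 differed from miR-301a at 10 of 23. The most similar strands thus come from different chromosomes.

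The members lie at 3 places in the genome, given here in the GRCh38 coordinates of the deposited tables. MIR130A (ENSG00000208009.1) covers 89 bases of chromosome 11 from 57641198 to 57641286 on the plus strand, in an intron of the long noncoding RNA gene MIR130AHG. MIR301A (ENSG00000207996.1) spans 59151136 to 59151221 of chromosome 17 on the minus strand, and MIR454 (ENSG00000211514.1) spans 59137758 to 59137872 on the same strand. Both sit in an intron of SKA2, a protein-coding gene for a subunit of the spindle and kinetochore complex, with 13263 bases between them. MIR301B (ENSG00000212102.1) lies at 21652981 to 21653058 of chromosome 22 on the plus strand, and MIR130B (ENSG00000283871.1) follows it at 21653304 to 21653385 after a gap of 245 bases. Both overlap the RefSeq noncoding gene LOC107985532. No other listed feature overlapped any of the 5 hairpins, so none of their counts was shared through an overlapping feature. A count covers the whole hairpin locus and does not separate the 3p strand from the 5p strand.

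Counts assigned to features came to between 16180790 and 27370127 per library, and miRNAs held 63.5% to 75.3% of them. After the filter on low counts, 1480 features were tested, 621 of them miRNAs, and all 5 members were among them. The level of a member is given as CPM, its count relative to the library total after scaling that total with the TMM factor of edgeR. A feature was called when the quasi-likelihood F test of edgeR gave a Benjamini-Hochberg FDR under 0.05 together with a fold change over 1.5. Only 2 features met this rule, or 0.135% of those tested. They were MIR34C, at -2.74 on the log2 scale, and MIR203B, at 2.79, both named here after their values had been seen. miRNAs that mark other cell types were also read. The liver miRNA MIR122 reached at most 0.948 CPM, and the summed level of 5 blood miRNAs, MIR451A, MIR144, MIR223, MIR142 and MIR150, was 2.53 CPM at most. Markers of muscle and endothelium were far higher, reaching 96.5 and 138 CPM, and are given below with those of brain. The muscle value sums 5 loci, among them the copies MIR1-1 and MIR1-2 with near-equal counts, and MIR1-1 alone reached 46.6 CPM.

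None of the 5 members was called between 52X T4A and 52X WT, against 0.135% of all features. The levels of MIR301B, MIR301A, MIR130B and MIR130A were lower in both 52X T4A libraries than in either 52X WT library, which was true of 21.2% of all features tested. MIR301B was the only member with an unadjusted p under 0.05, a level reached by 6.28% of all features in the direction of a lower value in 52X T4A. MIR454 overlapped between the groups. With so few members these counts describe the loci one by one, and no test was made over the family as a whole.

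**Figure D1:**
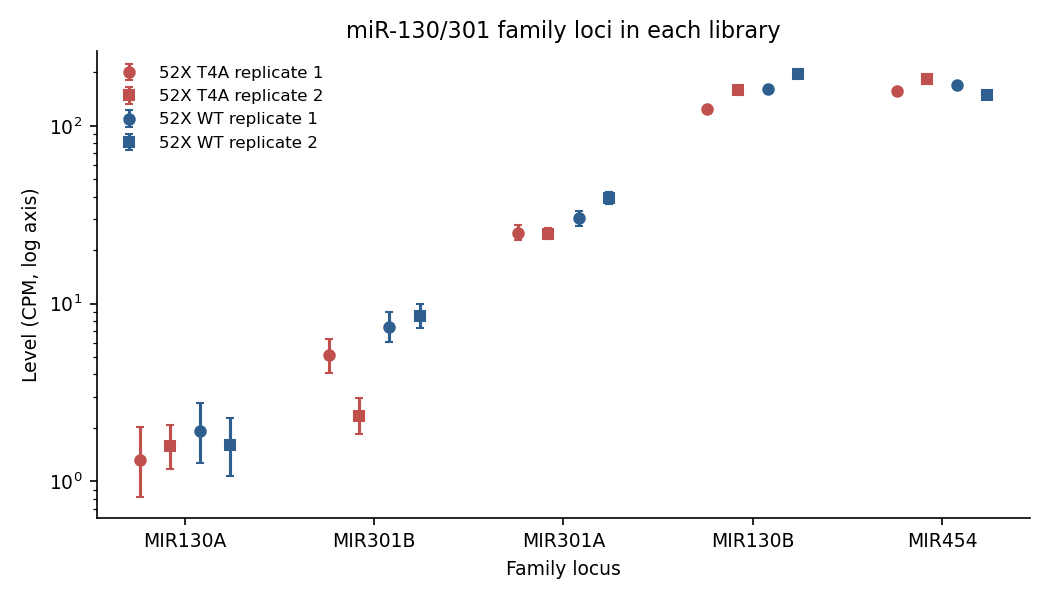
Level of each family locus in CPM on a log axis, with 1 point per library (red 52X T4A, blue 52X WT; circles replicate 1, squares replicate 2) and 95% Poisson intervals for counting error. MIR130B and MIR454 lie above 100 CPM in all libraries, and MIR301B in 52X T4A replicate 2 falls to 2.34 CPM while its other libraries lie between 5.12 and 8.55.

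MIR301B had the largest difference of the family. It had 81 and 74 counts in 52X T4A replicates 1 and 2, against 108 and 161 in the 52X WT replicates. The levels were 5.12 and 2.34 CPM in 52X T4A and 7.40 and 8.55 CPM in 52X WT. Both 52X T4A libraries were thus below both 52X WT libraries, but the 52X T4A libraries themselves stood far apart, with replicate 2 at -1.13 relative to replicate 1 on the log2 scale. The fitted log2 fold change was -1.12 (SE 0.42, 95% interval -2.08 to -0.17), a level in 52X T4A of 0.459 times that in 52X WT (0.237 to 0.889). The edgeR test gave an unadjusted p of 0.0257 and an FDR of 0.421, so the difference was not called. Without 52X T4A replicate 2 the value was -0.73 with an edgeR p of 0.224, and without 52X T4A replicate 1 it was -1.77 with an FDR of 0.106. The Poisson interval of the lowest library does not reach that of any other library.

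MIR301A, whose mature strand is nearly that of MIR301B, was the next lowest in 52X T4A. It had 397 and 780 counts in 52X T4A, against 441 and 740 in 52X WT. The levels were 25.1 and 24.7 CPM in 52X T4A and 30.2 and 39.3 CPM in 52X WT, so the 52X T4A libraries were close to each other and below both 52X WT libraries. The log2 fold change was -0.48 (SE 0.30, interval -1.17 to 0.20), with an edgeR FDR of 0.548. It was -0.28 without 52X WT replicate 2. Its interval ran from a decrease of more than 1.5-fold to a small increase.

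MIR130B, the neighbour of MIR301B on chromosome 22, had 1963 and 5000 counts in 52X T4A, against 2341 and 3661 in 52X WT. The levels were 124 and 158 CPM in 52X T4A, against 160 and 194 CPM in 52X WT. The groups were separated only by the gap from 158 to 160 CPM, which is smaller than the distance between the replicates of either group. The log2 fold change was -0.33 (SE 0.26, interval -0.92 to 0.26), with an edgeR FDR of 0.628. It was -0.60 without 52X T4A replicate 2, -0.51 without 52X WT replicate 1, -0.18 without 52X WT replicate 2 and -0.16 without 52X T4A replicate 1.

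MIR454, the neighbour of MIR301A in SKA2, had 2487 and 5823 counts in 52X T4A, against 2486 and 2823 in 52X WT. The levels were 157 and 184 CPM in 52X T4A and 170 and 150 CPM in 52X WT, and these ranges overlapped. The log2 fold change was 0.09 (SE 0.25, interval -0.47 to 0.66), with an edgeR FDR of 0.932. The sign of this value was negative, -0.11, without 52X T4A replicate 2.

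MIR130A, the member with a host gene of its own on chromosome 11, had the fewest counts, at 21 and 50 in 52X T4A, against 28 and 30 in 52X WT. The levels were 1.33 and 1.58 CPM in 52X T4A, against 1.92 and 1.59 CPM in 52X WT. The higher 52X T4A library and the lower 52X WT library were almost equal, and their counting intervals overlapped widely. The log2 fold change was -0.25 (SE 0.39, interval -1.13 to 0.63), with an edgeR FDR of 0.844. It was -0.48 without 52X T4A replicate 2, -0.38 without 52X WT replicate 2, -0.16 without 52X WT replicate 1 and -0.14 without 52X T4A replicate 1. This interval held a 2-fold decrease but not a 2-fold increase.

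**Figure D2:**
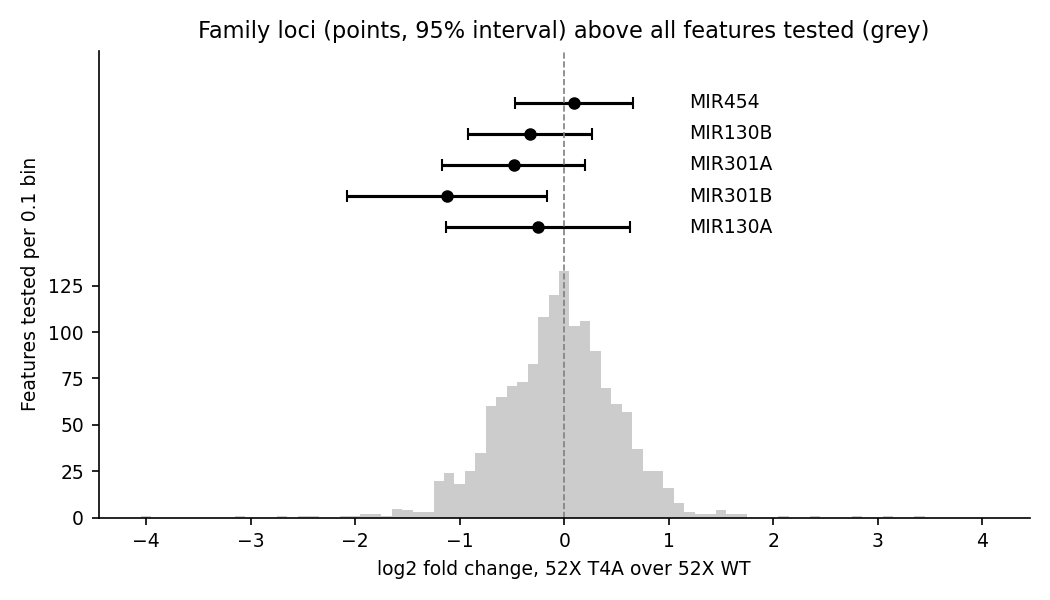
Log2 fold change of each family locus, 52X T4A over 52X WT (black points, bars for the 95% interval of the edgeR fit), drawn above the distribution of all 1480 features tested (grey, features per bin of 0.1). Only the interval of MIR301B, from -2.08 to -0.17, lies wholly below 0, and the other members sit within the bulk of the grey distribution.

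The median log2 fold change of the members was -0.33, beside -0.05 for all features tested and -0.02 for the tested miRNAs. Of the 5 members, 4 had a value below 0, and 53.9% of all features did. Scaling by library size alone moved the median of all features to 0.14, and upper quartile factors moved it to 0.13. A change of scaling moves all features nearly alike, so the values relative to that median could hardly differ over the 5 scalings compared. The fitted log2 fold changes themselves moved with library size alone, from -0.33 to -0.14 for MIR130B and from -0.25 to -0.06 for MIR130A. The log2 fold change of MIR301B minus the median of all features was between -1.12 and -1.08, that of MIR301A between -0.45 and -0.43, that of MIR130B between -0.29 and -0.27, that of MIR130A between -0.21 and -0.20, and that of MIR454 between 0.14 and 0.15. The separation of the groups did depend on scaling. With library size alone MIR301B was the only member whose levels were lower in both 52X T4A libraries, since 52X T4A replicate 2 then held 183 CPM of MIR130B, 28.5 CPM of MIR301A and 1.83 CPM of MIR130A.

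Of the marker miRNAs of other cell types, the summed levels of muscle and of blood and the level of endothelial MIR126 did not overlap between the groups. Those of brain and liver did. MIR126 was lower in both 52X T4A libraries, as were 21.2% of all features tested. The sums of muscle and blood were higher, and the share of all features apart in that direction is not given here. The 5 muscle loci were MIR1-1, MIR1-2, MIR133A1, MIR133A2 and MIR206. Their summed level was 81.6 to 96.5 CPM in 52X T4A and 30.5 to 33.1 CPM in 52X WT. Nearly all of it came from the paired copies MIR1-1 and MIR1-2. Those copies held near-equal counts, so the sum can hold the same reads more than once. MIR1-1 alone was at 46.6 and 39.9 CPM in 52X T4A, against 15.1 and 16.4 CPM in 52X WT. MIR126, which marks endothelium, was at 96.1 to 98.8 CPM in 52X T4A, against 124 to 138 CPM in 52X WT. The brain copies MIR124-2 and MIR124-3 summed to 2.91 to 5.38 CPM in 52X T4A, against 4.62 to 8.15 CPM in 52X WT. They too held near-equal counts. The blood miRNAs summed to 2.53 CPM in both 52X T4A libraries and to 0.822 and 1.75 CPM in 52X WT, with MIR144 at 0 in replicate 1 of each group. MIR150 had the widest separation among them, at 1.01 and 1.33 CPM in 52X T4A and 0.206 and 0.478 CPM in 52X WT. MIR142 was separated only by 0.538 against 0.531 CPM, and the levels of MIR451A, MIR144 and MIR223 overlapped between the groups. MIR122, the liver marker, was at 0.253 to 0.948 CPM in 52X T4A, around the 0.478 to 0.617 CPM of 52X WT. The part of these shifts in the family's values was not tested. In RNA from whole cultures, fewer cells that make a miRNA and less of it per cell cannot be told apart.

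The levels of the members spanned 2 orders of magnitude. Compared per length of the hairpin, MIR130B had the highest mean level, at 1943 CPM per kilobase (1512 to 2372 over the 4 libraries). MIR454 followed at 1439 CPM per kilobase (1304 to 1604), and these 2 ranges overlapped, so the leading pair could not be ordered by its spread. Without the division by length the order was the other way, with a mean of 165 CPM for MIR454 and 159 CPM for MIR130B. MIR301A was next at 347 CPM per kilobase (287 to 457), then MIR301B at 75.0 (30.0 to 109.6) and MIR130A at 18.0 (14.9 to 21.6). The ranges of these last 3 members did not overlap with each other or with those of the leading pair. Among the strands printed above, miR-130b and miR-454 therefore came from the loci with most of the family's reads, and the 2 near-identical miR-301 strands came from loci with few.

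The family as a whole took a small part of each library. The 5 loci together held 0.0306% and 0.0428% of all counts in 52X T4A, against 0.0334% and 0.0387% in 52X WT. The 52X WT values lay between the 52X T4A values, and the group means differed by 0.000681 percentage points against a pooled SD of 0.00669. This difference was 0.00681 points without 52X T4A replicate 1, -0.00545 points without 52X T4A replicate 2, -0.00199 points without 52X WT replicate 1 and 0.00335 points without 52X WT replicate 2. As a share of miRNA counts alone, the family held 0.0432% and 0.0569% in 52X T4A and 0.0525% and 0.0527% in 52X WT, again with the 52X WT values inside the range of 52X T4A.

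The make-up of the family's counts was read within each library. MIR454 held 50.0% ± 0.423 (SD, n = 2) of the family counts in 52X T4A, against 42.0% ± 5.61 in 52X WT. MIR130B held 41.2% ± 2.10 in 52X T4A, against 46.3% ± 4.28 in 52X WT. The share of MIR454 was higher in both 52X T4A libraries and that of MIR130B lower, although the spread in 52X WT was wide. MIR301A held 7.34% ± 0.969 and 9.07% ± 1.29, MIR301B held 1.13% ± 0.711 and 2.08% ± 0.122, and MIR130A held 0.425% ± 0.00144 and 0.461% ± 0.0803, in 52X T4A and 52X WT in each case. The shares of MIR301A and MIR301B were also lower in both 52X T4A libraries, and that of MIR130A overlapped between the groups. Shares of one total are tied to each other, so the higher share of MIR454 and the lower shares of MIR130B, MIR301A and MIR301B are not separate facts.

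**Figure D3:**
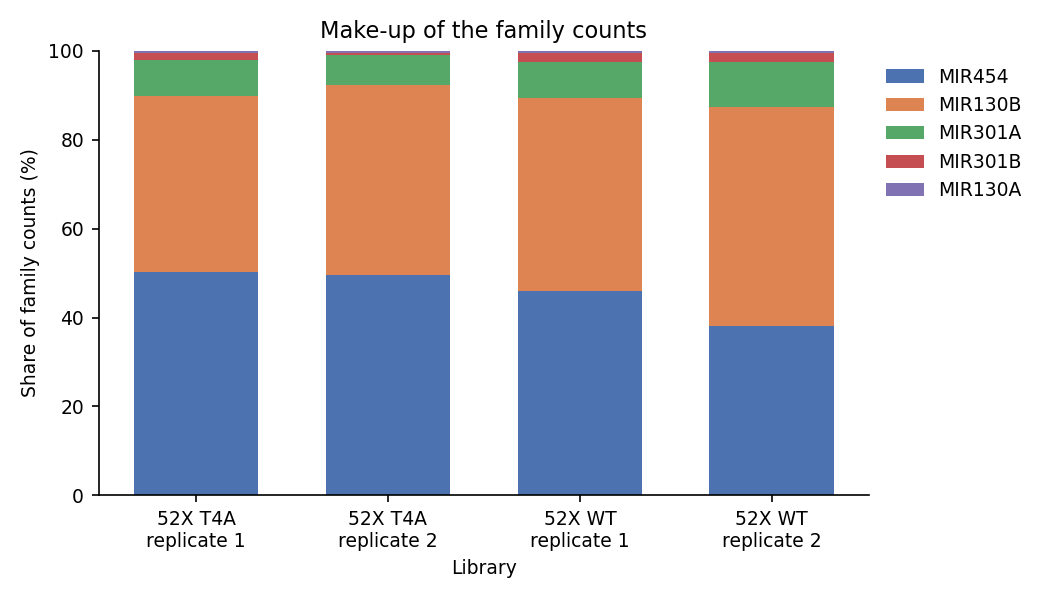
Share of the family counts held by each locus, in percent of the summed counts of the 5 loci, with 1 stacked bar per library. MIR454 makes up 50.3% and 49.7% of the bar in 52X T4A and 46.0% and 38.1% in 52X WT, and MIR130B makes up most of the rest.

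The 2 neighbouring pairs allow a comparison inside each library that needs no scaling. In SKA2, MIR301A held 13.8% and 11.8% of the summed counts of MIR301A and MIR454 in 52X T4A, and 15.1% and 20.8% in 52X WT. Both 52X T4A shares were below both 52X WT shares, although the 95% Wilson intervals of 52X T4A replicate 1 (12.6% to 15.1%) and 52X WT replicate 1 (13.8% to 16.4%) overlapped. The group means differed by -5.13 percentage points, and between -7.98 and -2.28 when 1 library was left out, the smallest difference being that without 52X WT replicate 2. The two-sided exact permutation p was 0.333, the smallest that 2 libraries against 2 can give.

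On chromosome 22, MIR301B held 3.96% of the summed counts of MIR301B and MIR130B in 52X T4A replicate 1 but 1.46% in its replicate 2, and 4.41% and 4.21% in 52X WT. The single library that stood apart was 52X T4A replicate 2, with a Wilson interval of 1.16% to 1.83%. The interval of 52X T4A replicate 1, 3.20% to 4.90%, held the values of both 52X WT libraries. The group means differed by -1.60 percentage points with the same exact permutation p of 0.333, and by -0.35 points without 52X T4A replicate 2. MIR130B had 24.2 times the counts of MIR301B in 52X T4A replicate 1 and 67.6 times in replicate 2, beside 21.7 and 22.7 times in 52X WT. MIR130B, 245 bases away, was higher in replicate 2 of 52X T4A than in its replicate 1, whereas MIR301B was lower. The intervals cover counting error only, since reads are not independent molecules.

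**Figure D4:**
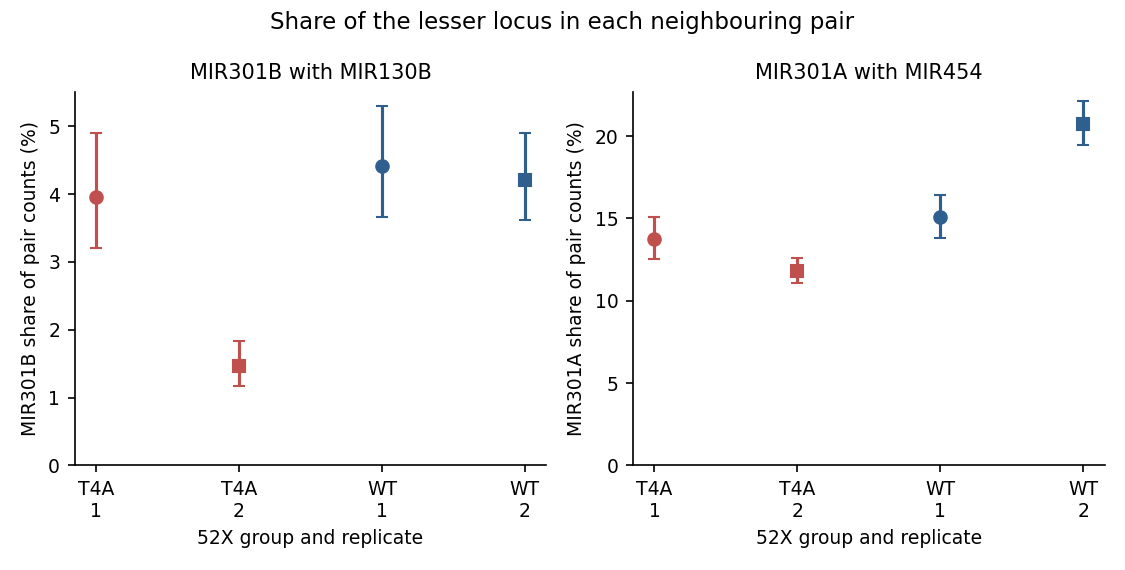
Share of the less abundant locus in the summed counts of each neighbouring pair, in percent, per library with 95% Wilson intervals (red 52X T4A, blue 52X WT; circles replicate 1, squares replicate 2). MIR301B falls to 1.46% in 52X T4A replicate 2 alone, and the MIR301A share has its lowest value, 11.8%, in 52X T4A replicate 2 and its highest, 20.8%, in 52X WT replicate 2.

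The replicates gave a measure of how far each member moved with no change of group. From replicate 1 to the other library of 52X T4A the log2 difference was -1.13 for MIR301B, 0.35 for MIR130B, 0.26 for MIR130A, 0.23 for MIR454 and -0.02 for MIR301A. Between the 52X WT libraries it was 0.38 for MIR301A, 0.28 for MIR130B, 0.21 for MIR301B, -0.18 for MIR454 and -0.27 for MIR130A. The distance between the 52X T4A libraries of MIR301B was about as large as its fitted difference between groups. For MIR301A, the fitted difference between the groups exceeded the distance between the replicates of either group.

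**Figure D5:**
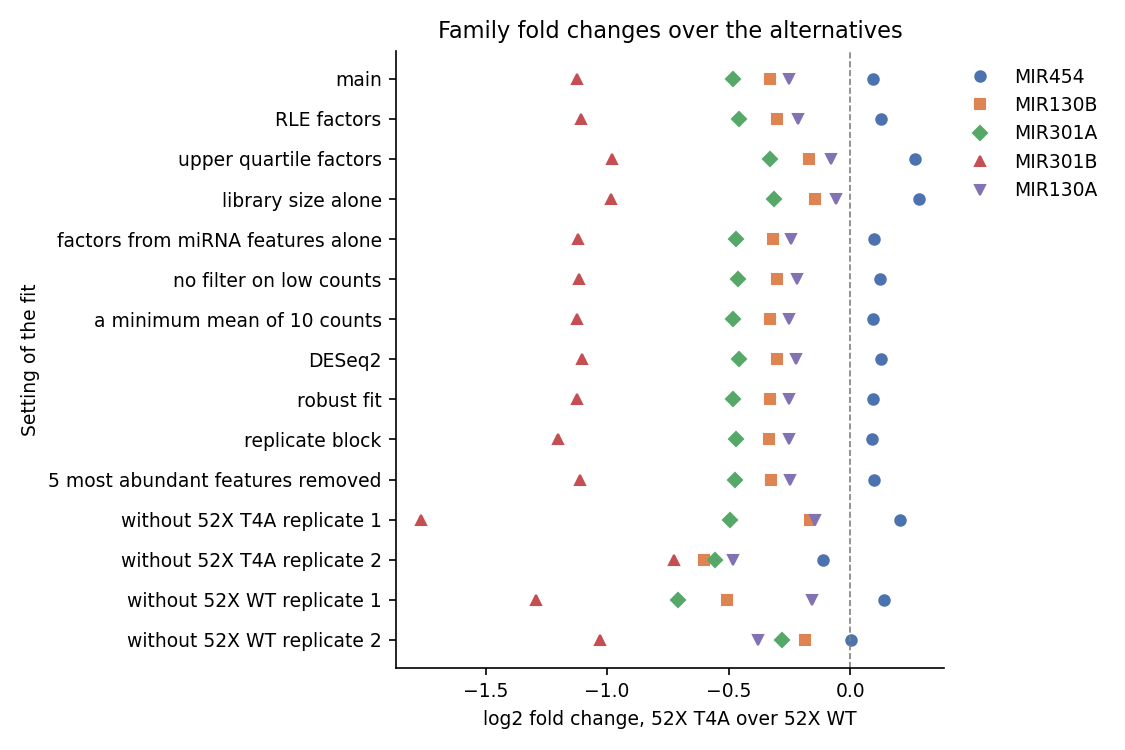
Log2 fold change of each family locus, 52X T4A over 52X WT, under each setting of the fit, with 1 symbol per locus. MIR301B is lowest in every setting and ranges from -1.77 to -0.73, and MIR454 crosses 0 once, at -0.11 without 52X T4A replicate 2.

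Other loci of the same seed had almost no counts. The strands of MIR3666 and MIR4295 are shown because they carry the same AGUGCAA at bases 2 to 8 but belong to loci outside the 5 members.
hsa-miR-3666: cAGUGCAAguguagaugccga
hsa-miR-4295: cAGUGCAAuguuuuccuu

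MIR3666 had 0 counts in all 4 libraries, which allows up to 3 counts in each. MIR4295 had 1 count in 52X T4A replicate 2 and 0 in the other 3 libraries. Neither passed the filter on low counts.

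The seed also resembles those of 2 other families when it is shifted by a base. The miR-148 and miR-152 strands carry AGUGCA from base 3 to base 8, and the miR-19 strands carry GUGCAA from base 2 to base 7. One strand of each is shown to make the offset visible, again with bases 2 to 8 in capitals.
hsa-miR-148a-3p: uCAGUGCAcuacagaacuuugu
hsa-miR-19a-3p: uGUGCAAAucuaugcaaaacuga

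These 6 loci, MIR148A, MIR148B, MIR152, MIR19A, MIR19B1 and MIR19B2, held 7.29% to 14.8% of all counts in a library, far more than the family itself, and most of it was MIR148A. None was called, beside 0.135% of all features. Their log2 fold changes were below 0 for 4 loci and above 0 for 2, with a median of -0.53 beside -0.05 for all features. MIR19A had 45.0 and 46.2 CPM in 52X T4A and 100.5 and 64.2 CPM in 52X WT, a log2 fold change of -0.85 (edgeR unadjusted p 0.0224, FDR 0.419). MIR152 had 479 and 498 CPM in 52X T4A and 344 and 340 CPM in 52X WT, a log2 fold change of 0.51 (edgeR unadjusted p 0.0436, FDR 0.460). MIR19B1 and MIR19B2 gave -0.78 and -0.76, but they share a mature sequence and held near-equal counts, so they are not separate observations. The count of 4 and the median of -0.53 take them as 2 loci, which draws the median toward their values. MIR148A and MIR148B gave 0.27 and -0.31. The 6 loci thus did not share a direction.

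The features whose pattern over the 4 libraries was most like that of the family were found from log2 CPM centred on each feature's own mean. Likeness was the root mean square difference from the mean profile of the members, over the 751 features averaging 100 counts or more, for which the median difference was 0.35. MIR92A2 and MIR92A1, copies that share a mature miRNA, were closest at 0.0258 and 0.0261, and MIR450A2 followed at 0.0270. Their log2 fold changes were each -0.48. The members themselves were farther from their mean profile, with 0.11 for MIR301A, 0.17 for MIR130B, 0.18 for MIR130A, 0.30 for MIR454 and 0.53 for MIR301B. With only 4 libraries this is a description of their order and not a test, and the mean profile is pulled toward MIR301B.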

How the data were processed

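Small RNA was sequenced as single-end 50 bp reads of HEK293T cells, with 2 libraries for each CTD version. The authors deposited raw read counts per small RNA feature for each library, with no normalization. The submitters' processing notes name cutadapt 4.6, Bowtie2 2.3.5.1, featureCounts 1.5.0 and hg38. Their settings, including strand and the treatment of reads with several matches, are not given in the sources used here, and copies of one mature miRNA can share reads. GENCODE v44lift37, matched on the Ensembl identifier, gave 5579 features a symbol. RefSeq GRCh38.p14 entries at the same position named another 908, MIR130B among them, and 575 had no symbol. Host introns were read within GENCODE v44lift37, and no coordinates were converted.

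The whole table was fitted in edgeR 4.0.16 (quasi-likelihood F test, R 4.3.3) using TMM factors, filterByExpr with a minimum count of 10, and group as the only term. Benjamini-Hochberg adjustment ran over the 1480 features tested. The SE is the size of the log2 fold change divided by the square root of F, and intervals are at 95%. The common biological coefficient of variation was 26.0%. Shares have Wilson intervals, and counts have exact Poisson intervals. With 2 libraries a group, the edgeR p-values rest on the spread between these libraries only. The spread of each feature is drawn toward that of all features tested, so it is not that of the locus alone.

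The members, the marker and seed lists and the tests were chosen with earlier results of these data known. Named loci were the 5 members, other loci of the same seed, 6 loci of an offset seed, and the 3 features of nearest profile. Alternatives covered scaling, filters, DESeq2 1.42.0, a robust fit, removal of the 5 most abundant features, the replicate number as a block, thresholds, and each library left out. Leaving out libraries for the shares within pairs was added after the data had been seen.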

Additional observations from a re-analysis of the deposited data

How the results depend on the processing

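No member was called under any alternative. Of 70 comparisons of a member with an alternative, 69 kept the direction and the side of the threshold. The exception was MIR454, whose values with 1 library left out ran from -0.11 (without 52X T4A replicate 2) to 0.20. MIR301B ran from -1.20 to -0.98 over the 10 alternatives with all libraries (FDR 0.201 to 0.477) and from -1.77 to -0.73 with 1 library left out (FDR 0.106 to 0.898). MIR301A without 52X WT replicate 1 gave -0.71 (edgeR unadjusted p 0.0284, FDR 0.596). The median of the members ran from -0.56 (without 52X T4A replicate 2) to -0.16 with 1 library left out. DESeq2 gave no adjusted p for MIR130A, and that comparison was counted among the 69 as not called.

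The count of features called over the whole table was less stable. It was 2, and became 9 with library size alone, 29 with no filter, 30 with DESeq2, and 0 (143 at an unadjusted p under 0.05 in edgeR) with factors from miRNA features alone. With 1 library left out it ran from 0 (without 52X WT replicate 1, 121 at an unadjusted p under 0.05 in edgeR) to 231 (without 52X WT replicate 2), with 6 without 52X T4A replicate 1 and 4 without 52X T4A replicate 2. These fits assume that the lone library varies like the other group. The cause was not tested.

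The replicate number as a block gave 18 calls, and MIR301B at -1.20 (FDR 0.201). Same-numbered libraries deviated together with r = 0.0946 across 1480 features, which are not independent replicates, so the pairing rests on the numbers alone. Upper quartile factors kept 2 calls but turned the split at an unadjusted p under 0.05 from 59 higher and 93 lower to 108 higher and 54 lower, and library size alone gave 116 higher and 68 lower. The 21 to 50 counts of MIR130A limit its precision. The difference in the MIR301A share of its pair ran from -7.98 to -2.28 points with 1 library left out, and that in the MIR301B share from -2.85 to -0.35.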
